A study of Mus musculus with 12 samples.

Results

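BAF60a (gene Smarcd1) is a subunit of the SWI/SNF complexes, which use ATP to move nucleosomes and open chromatin, and it links these complexes to transcription factors. Brown fat burns lipid to make heat through the mitochondrial uncoupling protein UCP1, while inguinal fat is a subcutaneous white depot in which UCP1-bearing beige adipocytes appear in the cold. The comparison described here is that of brown fat with inguinal fat in mice whose adipocytes lack BAF60a, and it asks which differences in chromatin accessibility between these depots remain without this subunit. Accessibility was measured by ATAC-seq, in which a transposase cuts accessible DNA and leaves adapters at the cuts, and more reads at a site stand for more open chromatin.

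The members are the 6 AKO samples among 12 in all. AKO mice (C57BL/6) carried floxed BAF60a alleles and Adiponectin-Cre, which deletes BAF60a in adipocytes and leaves it in the other cells of the tissue, and flox mice carried the floxed alleles without the Cre. The AKO brown fat samples came from 3 single mice, snap-frozen one by one, whose age was not stated for this assay. The AKO inguinal samples were 3 aliquots of 1 pool of minced fat from 6 cold-acclimated mice, in a chamber brought down to 10 °C and held there for 7 days, so that their spread is technical. The cold-acclimated mice were 6 to 8 months old. Each of the 2 flox groups, used here only to show where AKO differs, was made in the same way, with 3 mice and with 3 aliquots of 1 pool.

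The peaks of the 2 tissues were called and normalized apart, so the members were compared on 31487 paired peaks, each a brown fat peak with the inguinal peak that overlaps it longest, by at least 1 bp. Of 58558 brown fat peaks 27071 had no inguinal partner, and 7719 of 39558 inguinal peaks overlapped no brown fat peak. The level of a peak is its reads per kb of peak for each 1000000 reads in paired peaks, and a tissue difference is the mean of log2(level + 1) in brown fat minus that in inguinal fat. Reads in paired peaks came to 4871643 to 11272603 in the AKO brown fat samples and 3769057 to 4107884 in the AKO inguinal aliquots. In a peak of 1 kb a count of 0 allows a level of up to 0.266 to 0.616 in brown fat and 0.73 to 0.796 in inguinal fat, for counting error only. Brown fat of AKO replicate 2, with the fewest reads of the 3, lay at 112 on the first principal component of the brown fat samples, where the other 5 lay between -98.2 and 14.6.

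No p-value is given for the tissue difference itself. Tissue cannot be told apart from housing, sequencer, peak calling and pooling, and the study's methods and the sample labels give different sequencers for the inguinal samples. A tissue difference was called where every AKO brown fat sample lay on one side of every AKO inguinal aliquot and the means were far enough apart. The tested quantity is the tissue by genotype term, the AKO tissue difference minus that in flox. It equals the AKO-minus-flox difference in brown fat less that in inguinal fat, so that any effect shared by the genotypes of 1 table cancels. An effect that differs between the genotypes does not cancel. Since cold acclimation was stated for the inguinal mice alone, the term cannot be told apart from one of housing by genotype.

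The targeted gene was looked at first. A brown fat peak assigned to Smarcd1 (chr15:99704113-99704521, mm10), which has no inguinal partner, held 23, 30 and 28 reads in the AKO mice and 260, 272 and 143 in the flox mice. The levels were 5.45, 15.1 and 6.07 in AKO against 28.2, 45.9 and 43.6 in flox, with no overlap. At the paired Smarcd1 promoter the levels were 52, 59.5 and 61.7 in AKO brown fat and 64.3, 62.6 and 62.8 in AKO inguinal fat. Which exons the Cre removes is not given in the sources used here, so the promoter is no check of the deletion, and the AKO inguinal aliquots could not be checked in this way.

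Brown fat and inguinal fat remained distinct at single peaks without BAF60a, but few differences were large. At 4-fold and with no overlap, 3 of 31487 paired peaks (0.00953%) were higher in AKO brown fat and 22 (0.0699%) in AKO inguinal fat, against 12 (0.0381%) and 185 (0.588%) in flox. At 2-fold the AKO counts were 204 (0.648%) and 3022 (9.6%), and those of flox 519 (1.65%) and 5434 (17.3%). The tilt depended on the scaling: with DESeq2 size factors the counts were 18 and 6 in AKO and 80 and 25 in flox. The 4-fold counts also rested on single libraries and on width: the 22 became 71 without brown fat of AKO replicate 2, 36 without AKO inguinal aliquot 3 and 3 in pairs of like width, and the 3 became 8 and 6 without AKO inguinal aliquots 2 and 3. The 185 of flox became 384 and 99 without brown fat of flox replicates 3 and 1, and the 12 became 22 without flox inguinal aliquot 3. The median AKO tissue difference was -0.40 on the log2 scale, and that in flox -0.49. The differences below are therefore also given as relative differences, for which each sample was first centred on its own median paired peak.

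By this relative measure, 957 paired peaks (3.04%) were at least 2-fold higher in AKO brown fat and 660 (2.1%) at least 2-fold higher in AKO inguinal fat, with no overlap of the samples. The flox samples gave 1760 (5.59%) and 1602 (5.09%). By within-sample rank, with no overlap and mean ranks at least 25 percentile points apart, 2915 peaks ranked higher in AKO brown fat and 2790 in AKO inguinal fat, against 3852 and 3352 in flox. Without brown fat of AKO replicate 2, the relative counts in AKO were 1154 and 911.

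The spread of the tissue difference was narrower in AKO. Over all paired peaks the SD of the relative difference was 0.50 in AKO and 0.62 in flox. Taken mouse by mouse against the inguinal mean of the same genotype, it was 0.57, 0.56 and 0.54 in the 3 AKO mice and 0.74, 0.63 and 0.60 in the 3 flox mice. The genotypes did not overlap, and the exact permutation test over mice gave p = 0.1 (two-sided, n = 3 and 3), which is the smallest p this design allows. The inguinal mean of a genotype comes from 1 pool and enters all 3 of its values, which this test does not account for. Against the mean of all 6 inguinal aliquots the ranges were 0.53 to 0.56 and 0.58 to 0.71, and the same permutation test gave p = 0.1. Reads in paired peaks were 10325617, 4871643 and 11272603 in the AKO mice and 22535818, 14499287 and 8022366 in the flox mice, and the part of depth in this spread was not tested.

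**Figure D1:**
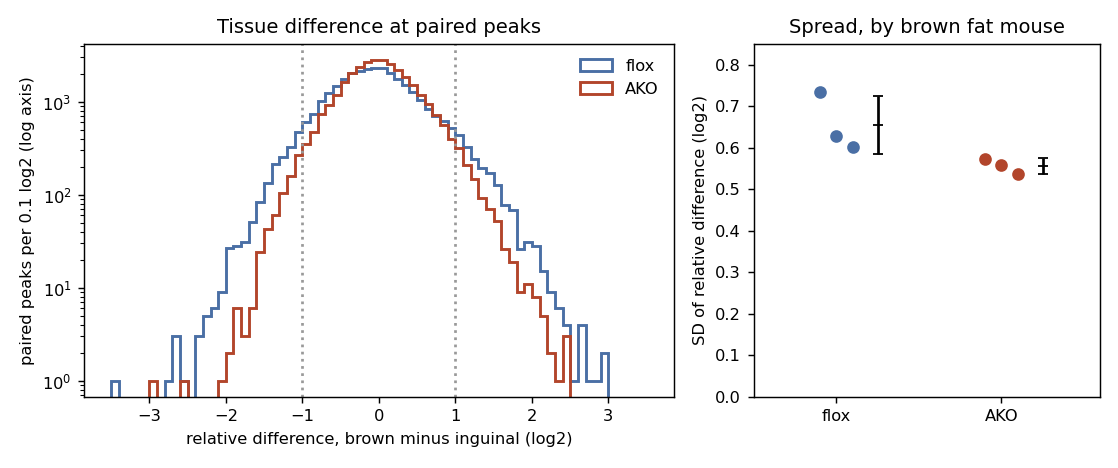
Left, number of paired peaks (log axis) by relative difference of brown fat minus inguinal fat (log2) in flox (blue) and AKO (red), with dotted lines at 2-fold; right, SD of the relative difference for each brown fat mouse, with mean and SD at the side. The AKO curve is the narrower one on both sides, and the 3 AKO mice (0.54 to 0.57) sit below the 3 flox mice (0.60 to 0.74).

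Many flox differences were smaller in AKO, and few turned. Of the 1760 peaks at least 2-fold higher in flox brown fat, 614 (34.9%) passed the same rule in AKO, 848 more had an AKO relative difference of 0.5 or above on the log2 scale without passing, and 15 (0.852%) lay at 0 or on the other side. Those 614 were 64.2% of the 957 AKO peaks. Of the 1602 peaks higher in flox inguinal fat, 374 (23.3%) passed in AKO, which were 56.7% of the 660 AKO peaks, and 95 (5.93%) lay at 0 or on the other side. A single peak was called in opposite directions in the genotypes. Each list was chosen on the values of its own genotype, so both directions are given. The 957 AKO peaks had a median relative difference of 1.18 in AKO and 1.19 in flox, while the 1760 flox peaks had 1.25 in flox and 0.86 in AKO. On the inguinal side, the 660 AKO peaks had -1.14 in AKO and -1.07 in flox, and the 1602 flox peaks -1.22 in flox and -0.71 in AKO.

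**Figure D2:**
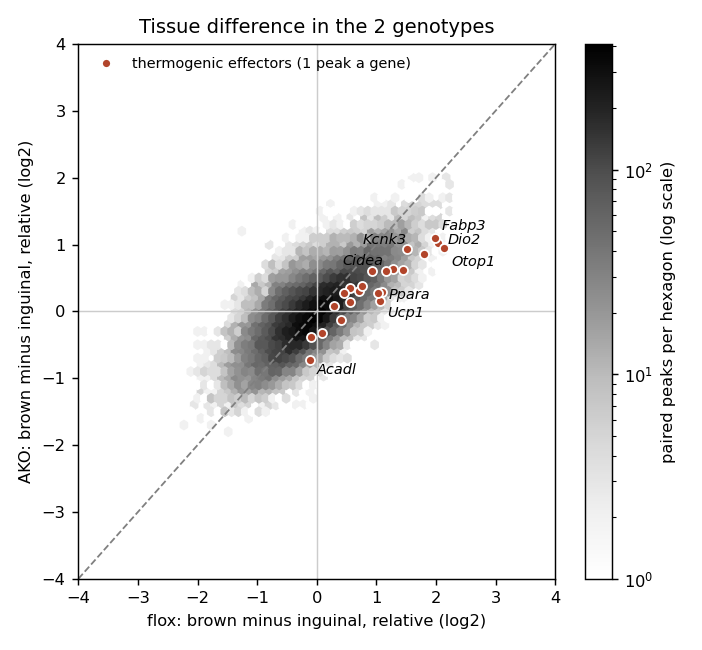
Relative tissue difference in flox (x axis, log2) against that in AKO (y axis, log2) for all 31487 paired peaks, shaded by number on a log scale, with the paired peak of highest mean level of each of 22 thermogenic genes in red and the line of equal values dashed. The cloud is flatter than the dashed line, and Otop1 (2.13 in flox, 0.94 in AKO), Dio2 (2.04, 1.03) and Ucp1 (1.05, 0.15) lie below it.

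The AKO differences that favoured brown fat lay away from promoters. Among peaks with an edge within 1000 bp of an annotated transcript start of a protein-coding gene, called promoters here, 60 of 11699 paired peaks (0.513%) were at least 2-fold higher in AKO brown fat, against 412 of 8837 in introns (4.66%), 401 of 8925 between genes (4.49%) and 84 of 2026 in exons (4.15%). The peaks higher in AKO inguinal fat were spread more evenly, from 1.8% of promoters to 2.71% of exons. Promoters were the lowest and introns the highest in flox too, with 1.1% and 8.6% higher in brown fat. Promoter peaks made up 6.27% of the AKO brown fat set, 31.8% of the AKO inguinal set and 37.2% of all paired peaks.

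**Figure D3:**
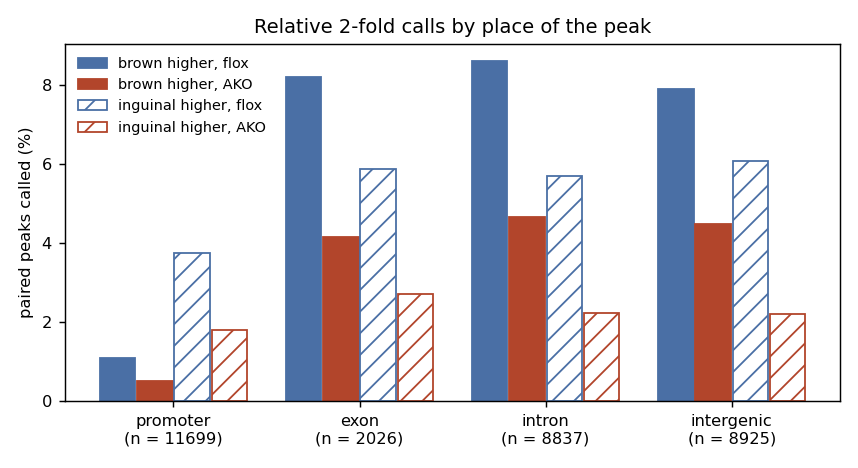
Share of paired peaks (%, y axis) called at least 2-fold higher in brown fat (filled bars) or inguinal fat (hatched bars) by relative difference, by place of the peak and genotype, with the number of paired peaks under each place. In AKO, 0.513% of promoters but 4.66% of introns were higher in brown fat.

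Peak width moved with the inguinal calls. The median inguinal peak of a pair was 507 bp wide and the brown fat peak 690 bp. Among the 660 peaks higher in AKO inguinal fat these medians were 317 and 831.5 bp, and 515 of the 660 lay in pairs whose widths differed by more than 1.5-fold. Among the 957 peaks higher in AKO brown fat the medians were 659 and 661 bp. In the 19374 pairs of like width, 445 (2.3%) were higher in AKO brown fat and 145 (0.748%) in AKO inguinal fat, and the SD was 0.43 in AKO and 0.55 in flox. The part of width in the calls was not tested, and pairs of like width are named below where they exist.

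The genes of heat production are set out first, since they separate the depots in function. Of 24 listed thermogenic effectors 22 had paired peaks, 52 in all. In AKO, 13 of the 52 were at least 2-fold higher in brown fat and none in inguinal fat, where all paired peaks gave 3.04% and 2.1%. In flox 24 were higher in brown fat and 1 in inguinal fat. The median relative difference over the 52 was 0.40 in AKO and 0.91 in flox, beside -0.003 and -0.06 over all paired peaks. In pairs of like width (within 1.5-fold), 5 of 22 were higher in AKO brown fat and 6 of 22 in flox, with medians of 0.33 and 0.65, so that the AKO and flox counts came near each other there. The 13 AKO peaks belong to Acot11, Cidea, Dio2, Esrrg, Fabp3, Ppara and Ppargc1a, 7 of the 22 genes. Ucp1, Otop1, Kcnk3, Plin5, Slc27a2 and Cox8b had a called peak in flox and none in AKO.

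Short stretches of 5 regions are printed here because the next results turn on them. They are mm10 sequence of the plus strand from the stretch the brown fat and inguinal peaks share, all outside exons, and capitals mark matches to 1 of 4 motifs: CCCNNGGG (the core bound by early B-cell factors), TTGCNNAA (a C/EBP core), TCAAGGTCA (the site of estrogen-related receptors) and TGANTCA (AP-1), on either strand. A match is a match of letters and not a bound site. Ppara, Fabp3 and Pparg carry brown fat peaks that stayed higher in AKO, the Ucp1 peak did not, and the Mmp19 peak was higher in inguinal fat.
Ppara, chr15:85724784-85724911: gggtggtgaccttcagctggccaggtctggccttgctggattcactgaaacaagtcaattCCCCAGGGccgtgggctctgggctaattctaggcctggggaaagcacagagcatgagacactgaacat
Fabp3, chr4:130306912-130307116: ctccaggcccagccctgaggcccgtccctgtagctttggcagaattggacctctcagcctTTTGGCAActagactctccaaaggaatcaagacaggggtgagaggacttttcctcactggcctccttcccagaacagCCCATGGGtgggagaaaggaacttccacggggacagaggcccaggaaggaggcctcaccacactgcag
Ucp1, chr8:83278701-83278828: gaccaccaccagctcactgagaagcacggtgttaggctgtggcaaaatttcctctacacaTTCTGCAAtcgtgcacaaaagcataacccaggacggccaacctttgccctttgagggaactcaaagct
Pparg, chr6:115470406-115470534: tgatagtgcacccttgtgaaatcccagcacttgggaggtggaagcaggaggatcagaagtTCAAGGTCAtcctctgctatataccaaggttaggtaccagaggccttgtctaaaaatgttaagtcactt
Mmp19, chr10:128779512-128779638: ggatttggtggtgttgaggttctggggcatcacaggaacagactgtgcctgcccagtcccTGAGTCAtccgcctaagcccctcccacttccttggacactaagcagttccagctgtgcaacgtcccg

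Over the 300 bp around the middle of the shared stretch, CCCNNGGG occurred in 21.8% of the 957 AKO brown fat peaks, 16.1% of the 660 AKO inguinal peaks and 20% of all paired peaks. TTGCNNAA occurred in 20.8%, 16.2% and 13.8%, TGANTCA in 8.67%, 12.1% and 8.75%, and TCAAGGTCA in 0.731%, 0% and 0.429%. Since promoters were rare in the brown fat set, the shares outside promoters are the nearer comparison: CCCNNGGG in 21.6%, 12.7% and 17.7%, TTGCNNAA in 21.5%, 20% and 18.5%, and TGANTCA in 9.14%, 15.6% and 11.9%. GGGCGG, a motif of GC-rich promoters, occurred outside promoters in 7.02% of the AKO brown fat peaks, 21.8% of the AKO inguinal peaks and 13.6% of all, and over all places in 8.15%, 39.1% and 33.4%.

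Ppara encodes the nuclear receptor that drives fatty acid oxidation genes. Its paired peak 10938 bp upstream (chr15:85723989-85725263), shown because it had the largest relative difference of the list, had levels of 113, 101 and 92.1 in AKO brown fat and 37.1, 33.1 and 42 in AKO inguinal fat. The groups lay far apart, with a relative difference of 1.82 in AKO, but the flox value was 2.76, from brown fat levels of 147, 154 and 133 and inguinal levels of 31.6, 24.6 and 27.6. The tissue by genotype term was -0.91 ± 0.20 (SE), with an adjusted p of 0.144 by limma and 0.0502 by edgeR. At the Ppara promoter the AKO levels overlapped, with 102, 86.5 and 104 in brown fat and 99.2, 114 and 101 in inguinal fat, and the relative difference was 0.29 in AKO and 1.09 in flox.

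Cidea encodes a lipid droplet protein abundant in brown fat. At its promoter the AKO levels were 84.3, 74 and 73.8 in brown fat and 32.5, 40.1 and 33.8 in inguinal fat. Brown fat was higher in every sample, by 1.5 as a relative difference in AKO and 2.26 in flox. Of its 4 paired peaks 3 were called in AKO and all 4 in flox. The peak with the highest mean level over the 12 samples, 7012 bp upstream, was the one not called, with 0.63 in AKO and 1.28 in flox.

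Ucp1 differed from Cidea. None of its 3 paired peaks was called in AKO and 2 were in flox. The third, 19714 bp downstream, went the other way, with a relative difference of 0.43 in AKO and -0.14 in flox. Its term was 0.60 ± 0.33 (SE), with an adjusted p of 0.472 by limma. The peak 11429 bp upstream (chr8:83278222-83279617) was 1396 bp wide in brown fat and its inguinal partner 395 bp. The levels at this peak were 36.6, 37.2 and 30.8 in AKO brown fat and 42.3, 34.9 and 47.5 in AKO inguinal fat. The tissues overlapped there, and the relative difference was 0.15 in AKO and 1.05 in flox, where brown fat had 59.3, 62.7 and 46.9. The tissue by genotype term was -0.87 ± 0.24 (SE), with an adjusted p of 0.204 by limma and 0.0942 by edgeR. At the Ucp1 pair of like width, 29663 bp upstream with 552 and 633 bp, the AKO levels overlapped as well. With each sample centred on its own median the AKO tissues did not overlap at this pair, and brown fat was the higher. The relative difference of this pair was 0.54 in AKO, short of the 2-fold rule, and 1.35 in flox. Of the 12 brown fat peaks that the table assigns to Ucp1, 9 had no inguinal partner, among them the one over its start, so that the core of this locus was not compared.

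Otop1, a proton channel gene, and Kcnk3, a potassium channel gene, are known for high expression in brown fat. At the Otop1 promoter, in a pair of 3288 and 1240 bp, the AKO levels were 40.9, 39.8 and 38.6 in brown fat and 30.4, 23.9 and 26.7 in inguinal fat. Brown fat was still the higher, but in flox the gap was 66.8, 70.8 and 69.8 against 20.7, 18 and 23.1. The tissue by genotype term of -1.16 ± 0.18 (SE) had an adjusted p of 0.105 by limma and 0.011 by edgeR. At the Kcnk3 promoter, in a pair of like width, the AKO levels of 72.1, 54.3 and 59.5 lay above the inguinal 45.2, 52.7 and 36.9, with a relative difference of 0.85 in AKO and 1.79 in flox. The term was -0.91 ± 0.22 (SE), with an adjusted p of 0.18 by limma and 0.0529 by edgeR.

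**Figure D4:**
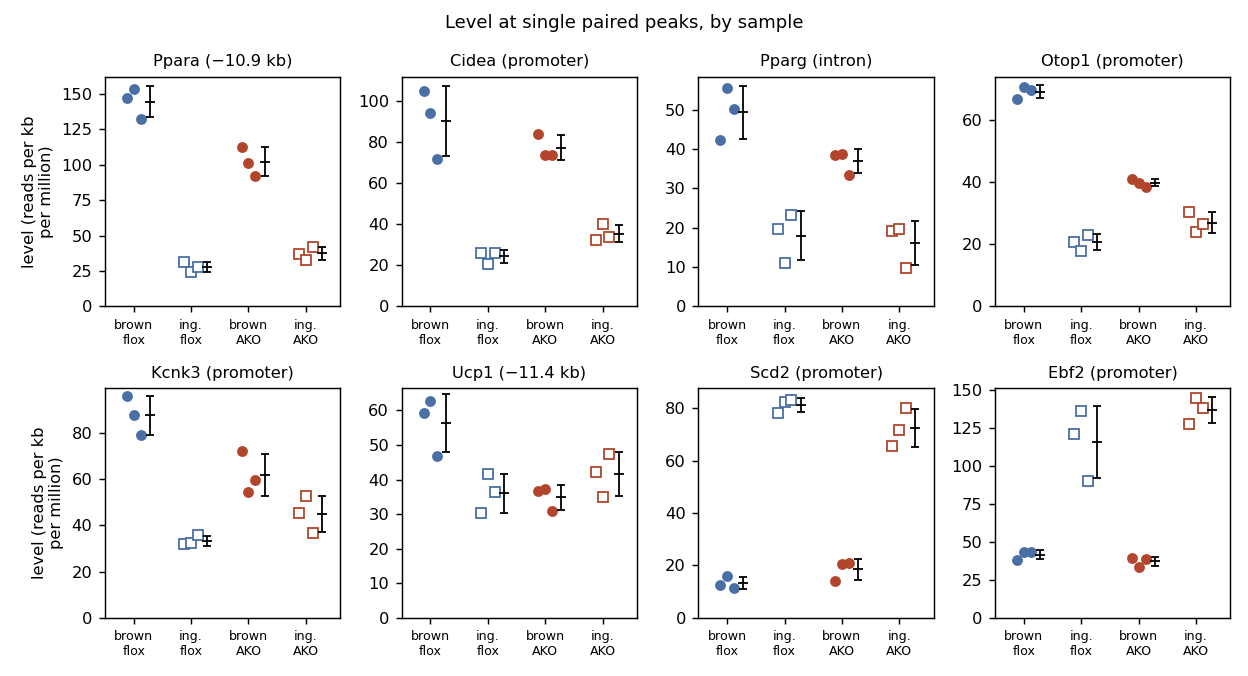
Level (reads per kb of peak for each 1000000 reads in paired peaks, axes from 0) at 8 single paired peaks in each sample of flox (blue) and AKO (red), brown fat as filled circles and inguinal fat as open squares, with mean and SD at the side of each group. At Ppara, Cidea and Pparg AKO brown fat stays above AKO inguinal fat, at Ucp1 the AKO tissues overlap, and at Scd2 and Ebf2 inguinal fat is the higher.

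Fabp3, a fatty acid carrier, and Dio2, which activates thyroid hormone, kept called peaks in AKO. At Fabp3, 1811 bp upstream, the AKO levels were 107, 97.6 and 95.8 in brown fat and 56.3, 57 and 69.5 in inguinal fat. The relative difference was 1.11 in AKO and 1.98 in flox, with a term of -0.84 ± 0.17 (SE) and an adjusted p of 0.139 by limma and 0.0505 by edgeR. Dio2 had 1.03 in AKO and 2.04 in flox at its peak of highest mean level. Esrrg, an estrogen-related receptor gene, had 2 peaks called in AKO. Its promoter peak had 1.29 in AKO and 1.5 in flox, and its intronic peak 53355 bp downstream of the start had 1.57 in AKO and 0.98 in flox, the latter with AKO levels of 40, 44.9 and 45 against 17.9, 21.8 and 16.4 in inguinal fat. The terms were -0.18 and 0.62 ± 0.20 (SE), the second with an adjusted p of 0.253 by limma. Of the other listed genes with a large AKO value, the promoters of Acadl, Elovl3 and Letmd1 leaned to inguinal fat without passing, with relative differences of -0.72, -0.38 and -0.32.

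Over the 52 thermogenic peaks the tissue by genotype term was below 0 at 44, with a median of -0.36 beside 0.05 over all paired peaks. At an unadjusted p under 0.05 by limma, 20 of the 52 had a smaller brown-over-inguinal ratio in AKO and 3 a larger one, where all paired peaks gave 5.08% and 7.73%. In the 22 pairs of like width these counts were 5 and 3, beside 718 and 1456 of all 19374 such pairs. In the 30 pairs of unlike width they were 15 and 0. The term was below 0 at 17 of the 22 and at 27 of the 30. With adjustment over all peaks, limma called none of the 52, edgeR 6 as lower in AKO (0.34% of all) and DESeq2 8 (1.04% of all). The 6 lie at Fabp3, Kcnk3, Otop1, Ucp1 and, with a pair of peaks, Ppara. Set beside the median peak, the list had a median of -0.33 for AKO minus flox in brown fat, with 39 of 52 lower in AKO, and 0.10 in inguinal fat, with 18 of 52 lower in AKO. The samples followed their genotype: the median over the list was 0.53, 0.20 and 0.46 in the AKO mice and 0.95, 0.84 and 0.79 in the flox mice, and AKO replicate 2 was the lowest.

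**Figure D5:**
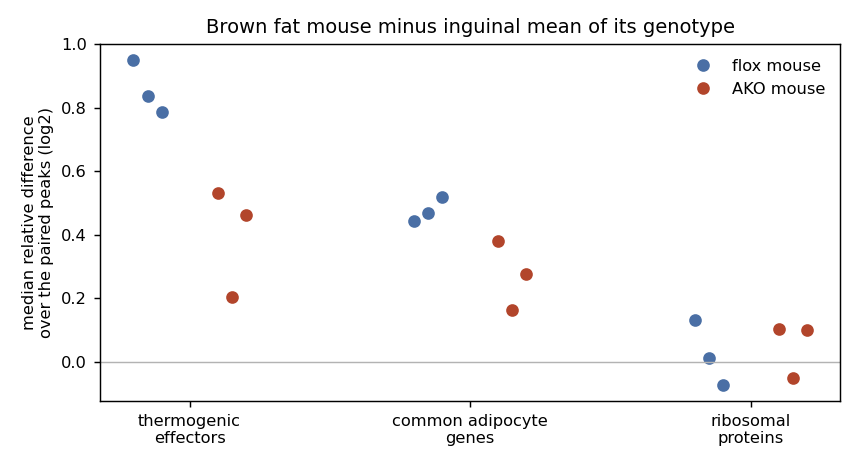
Median relative difference (log2, y axis) over the paired peaks of 3 gene lists, each point 1 brown fat mouse minus the inguinal mean of its genotype, flox in blue and AKO in red. The thermogenic medians do not overlap between genotypes (0.20 to 0.53 in AKO, 0.79 to 0.95 in flox), the common adipocyte medians do not either, and those of the ribosomal genes do.

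Genes that all adipocytes use were counted next. All 26 listed genes had paired peaks, 108 in all, of which 11 were higher in AKO brown fat and 2 in AKO inguinal fat, beside 3.04% and 2.1% of all paired peaks, against 24 and 5 in flox. Of the 24 flox peaks, 9 were also called in AKO. The median was 0.26 in AKO and 0.47 in flox. By mouse it was 0.38, 0.16 and 0.28 in AKO and 0.44, 0.47 and 0.52 in flox. In the 46 pairs of like width the medians were 0.46 in AKO and 0.53 in flox, with 6 and 13 peaks called higher in brown fat. In the 62 pairs of unlike width the medians were 0.17 and 0.39, with 5 and 11 such calls. The 11 peaks lie at Aqp7, Car3, Cd36, Dgat1, Fabp4, Lipe, Pparg and Scd1.

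Pparg, the master regulator of fat cells, had peaks of both kinds among its 6. The intronic peak 48332 bp downstream of the start (chr6:115469944-115470853) had levels of 38.4, 38.8 and 33.3 in AKO brown fat and 19.2, 19.6 and 9.77 in AKO inguinal fat, a relative difference of 1.59 in AKO and 1.88 in flox. The peak of highest mean level, 2586 bp downstream, had 83.2, 57.7 and 69.3 against 50.5, 41.9 and 42.2, with 1.01 in AKO and 1.25 in flox. At an exonic peak 41390 bp downstream, 837 bp wide in brown fat and 362 bp in inguinal fat, AKO inguinal fat was the higher, with 49.8, 71 and 58.5 against 20.5, 19.1 and 23.5 in brown fat, a relative difference of -1.06 in AKO and -0.26 in flox. Its term of -0.76 ± 0.22 (SE) had an adjusted p of 0.22 by limma.

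Lipe, which encodes hormone-sensitive lipase, had 1.04 and 1.14 at a promoter peak of like width. Pck1, the glyceroneogenic enzyme, had a promoter peak with 58.8, 52.3 and 38.8 in AKO brown fat and 46.8, 53.7 and 45 in AKO inguinal fat, which overlapped. That peak had 0.42 in AKO and 1.40 in flox, with a term of -0.94 ± 0.27 (SE) and an adjusted p of 0.21 by limma and 0.0942 by edgeR.

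Ebf2, a factor that marks brown and beige fat cells, had a peak that was higher in inguinal fat. Its promoter peak had levels of 39.3, 33.6 and 38.3 in AKO brown fat and 127, 144 and 138 in AKO inguinal fat. The relative difference was -1.46 in AKO and -1.01 in flox, in a pair whose widths were 2841 bp in brown fat and 421 bp in inguinal fat. Cfd, the adipocyte serine protease adipsin, had -0.86 and -1.03. Adipoq encodes adiponectin and supplies the promoter of the Cre. Its promoter peak in brown fat, 2755 bp wide, had AKO levels of 39.7, 47.8 and 41.8. The inguinal partner of 367 bp (chr16:23144454-23144820) had 68.7, 58.7 and 47.1, which overlapped. A second inguinal peak within the same brown fat peak (chr16:23146279-23146642) lies nearer the gene start but was not the partner. It had AKO levels of 86.7, 61.4 and 67.5, all above those of brown fat. Neither of the 2 paired peaks of Adipoq was called.

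Of 86 paired peaks at 19 genes of glucose use and fat synthesis, 5 were higher in AKO brown fat, at Hk2, Me1, Pfkp, Scd1 and Thrsp, and 1 in AKO inguinal fat, beside 3.04% and 2.1% of all paired peaks, with medians of 0.19 in AKO and 0.32 in flox. The single inguinal peak lies at the promoter of Scd2, a stearoyl-CoA desaturase gene, where the levels were 14, 20.6 and 20.8 in AKO brown fat and 65.4, 71.7 and 80.3 in AKO inguinal fat. This pair is of like width, and its relative difference was -1.54 in AKO and -2.12 in flox. Thrsp, a regulator of lipogenesis, had 1.2 in AKO and 0.91 in flox at a peak 1366 bp upstream.

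Of 43 paired peaks at 12 of 18 white-fat-enriched genes, 2 were higher in AKO brown fat, at Nnmt and Npr3, and none in AKO inguinal fat, where 3.04% and 2.1% of all paired peaks were called. Hoxc8, Dpt and Trim14 had -0.62, -0.50 and -0.42 at their peaks of highest mean level, with no call. Hoxc10, a homeobox gene of posterior fat named here after its values were seen, had a promoter peak with 12.6, 37.4 and 18.5 in AKO brown fat and 34.7, 35.8 and 33.6 in AKO inguinal fat, with a relative difference of -0.33 in AKO and -1.87 in flox. The term of 1.58 ± 0.53 (SE) had an adjusted p of 0.265 by limma, and AKO replicate 2 alone overlapped the inguinal aliquots.

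Transcription factors of body position had 60 paired peaks at 29 of 40 genes, of which 26 were above 0 in AKO. The median was -0.12 in AKO and -0.30 in flox, with 1 AKO call each way, beside 3.04% and 2.1% of all paired peaks. Shox2 and Irx2, homeobox genes, had -0.99 and -0.98 at their promoters in AKO, just short of the rule, with Shox2 levels of 22, 32 and 30 in brown fat against 60.9, 89.4 and 73.1 in inguinal fat. Zic1, a marker of the brown fat lineage, had -0.84 at its single paired peak, 474767 bp from its start. Within each sample that peak ranked at percentiles 0.038, 49.8 and 4.25 in AKO brown fat and 21.7, 26.8 and 55.9 in AKO inguinal fat. The tissues overlapped there, through AKO replicate 2 of brown fat. The Hoxc6 call rests on a brown fat slice of 25 bp and is not used.

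Among nuclear and melanocortin receptors, 1 of 88 paired peaks was higher in AKO brown fat, at Nr3c1, and 2 in AKO inguinal fat, at Esr1 and Mc2r. These counts stand beside 3.04% and 2.1% of all paired peaks. The medians were 0.04 in AKO and 0.08 in flox. Mc2r encodes the receptor of adrenocorticotropic hormone. Its peak 26685 bp upstream was 1234 bp wide in brown fat and 373 bp in inguinal fat. The levels at this peak were 21.5, 26 and 18.2 in AKO brown fat and 68.3, 73.8 and 49.6 in AKO inguinal fat. The relative difference was -1.11 in AKO and -1.01 in flox. It was present in both genotypes, which share the widths of the pair, and the part of width in it was not tested. At the other 3 Mc2r peaks the relative difference lay between -0.02 and 0.21 in AKO.

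The next lists were counted against the 3.04% and 2.1% of all paired peaks called in AKO. None of 56 paired peaks at 21 SWI/SNF subunit genes was called in AKO, and the paired Smarcd1 promoter had 0.26 in AKO and 0.28 in flox. Genes of creatine, calcium and other futile cycles, known as heat sources that do not need UCP1, had 21 peaks and no call, with a median of 0.19, and Pm20d1, Ckb, Gamt and Gatm had 0.87, -0.10, -0.19 and -0.40. Of 69 peaks at ribosomal protein genes, taken as a control, 2 were higher in brown fat and 1 in inguinal fat, with a median of 0.07.

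Markers of other cell types were counted because the samples are bulk tissue, in which fewer cells of a type and less open chromatin per cell cannot be told apart. Skeletal muscle and macrophage markers had 3 paired peaks each, with no call. Endothelial markers had 21 and epithelial markers 15, with no call, lymphocyte markers 13 with no call, fibroblast markers 31 with 1 call toward inguinal fat at Postn, Schwann cell markers 14 with 1 call toward brown fat at Egr2, and smooth muscle markers 18 with 1 call toward brown fat at Acta2. The summed level of the fibroblast peaks was 837 to 971 in AKO brown fat and 1180 to 1184 in AKO inguinal fat, and that of the endothelial peaks 531 to 659 and 739 to 791. The summed level of the ribosomal peaks was 2948 to 3096 and 3983 to 4081. Of the defining markers, Ckm and Myod1 of muscle, Cd68 and Lyz2 of macrophages, Cd3e and Cd79a of lymphocytes and Krt5 and Krt14 of epithelium had no peak in either table. The part of cell makeup in the results was not tested.

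The largest AKO differences lay at genes outside these lists. At 4-fold and with a mean of at least 50 reads in the higher tissue, 2 peaks were higher in AKO brown fat. An intronic peak of Gphn, the gene of the synaptic scaffold gephyrin, had levels of 34.6, 53.5 and 27.6 in brown fat and 9.24, 7.11 and 8.48 in inguinal fat, from 11 to 14 reads in each aliquot. In flox the tissues overlapped there, since the inguinal aliquots had 45.8, 5.73 and 72.8. An intronic peak of Gpc6, a glypican gene, had 32.8, 26 and 27.2 against 1.86, 12.1 and 7.96, where 1 aliquot held 3 reads. Pairs of like width at Suclg1, Ntrk3 and Tc2n were chosen after their values were seen. The peak 31876 bp from the start of Suclg1, which encodes a subunit of succinyl-CoA ligase in the citric acid cycle, had 68.5, 67 and 55 in AKO brown fat and 17.1, 17 and 19 in AKO inguinal fat. Its relative difference was 2.17 in AKO and 2.90 in flox. The peak in an intron at Ntrk3, a neurotrophin receptor gene, had 2.01 and 2.36, and that at Tc2n 1.98 and 2.12.

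On the inguinal side 8 peaks were named by the 4-fold rule, at Ninj2, Acvrl1, Rasl11b, Mesdc1, Pabpc4, 9630028H03Rik, Efnb2 and Tmem88b. Acvrl1, a receptor of the BMP family in endothelium, had an exonic peak of like width with 30.6, 20.4 and 29.8 in AKO brown fat and 135, 124 and 143 in AKO inguinal fat, a fold of 0.204 for brown over inguinal fat. Mesdc1, in a pair of 1175 bp in brown fat and 462 bp in inguinal fat, had 12.6, 17.8 and 10.9 against 66.6, 75.3 and 68. Efnb2, the gene of ephrin-B2, in a pair of 616 and 233 bp, had 11.5, 12.3 and 11.8 against 69.5, 43.5 and 70. All 8 had the same direction with no overlap in flox, where their relative differences lay between -2.25 and -1.15, beside -2.04 to -1.64 in AKO. Of the 8 pairs only those at Acvrl1 and 9630028H03Rik were of like width. The widths of a pair are the same in both genotypes, and their part in these differences was not tested. Their terms lay between -0.62 and 0.53, with adjusted p from 0.386 to 0.989 by limma. Among further pairs of like width, Mmp19, a matrix metalloproteinase gene, had 13.8, 17.7 and 15.6 against 54.6, 51.3 and 57.9, with -1.35 in AKO and -1.44 in flox. B4galt5, a galactosyltransferase gene, had -1.35 and -1.38 at its promoter.

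No paired peak passed the tissue by genotype test of limma at an adjusted p of 0.1 across all 31487 (0.0% in either direction), and the smallest was 0.105. At an unadjusted p under 0.05 limma gave 1598 peaks with a smaller brown-over-inguinal ratio in AKO and 2433 with a larger one. This tilt moved with the setting, to 2048 and 2045 with DESeq2 size factors and 1837 and 1647 with quantile normalization. The counts were 1708 and 1275 with the first principal component of brown fat as a covariate. With the aliquots of a pool averaged they were 578 and 602. On the recovered reads edgeR called 107 and 57 (0.34% and 0.181%), and DESeq2 309 and 214 of 29655 (1.04% and 0.722%). The inguinal replicates are aliquots of a pool, so that these p-values treat technical spread as if it were that of mice, and with the aliquots averaged limma called none.

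The 5 peaks with the smallest p in each direction were named. Toward a smaller ratio in AKO they were Plxna1, Fbf1, C130080G10Rik, Otop1 and Slc39a9, with terms from -1.85 to -0.98. At the exonic peak nearest Plxna1, a semaphorin receptor gene, AKO had 34.1, 41.9 and 37.3 in brown fat and 57.5, 55.4 and 58.7 in inguinal fat, while flox had 36.2, 34.3 and 35.4 against 24.3, 26.9 and 23.5. The inguinal aliquots carried that change, since AKO minus flox was 0.09 in brown fat and 1.17 in inguinal fat. At Slc39a9, a zinc transporter gene, the AKO levels overlapped, with 38.3, 35.2 and 38.8 against 37.8, 37.3 and 38.5. In flox, brown fat stood at 49.3, 53.1 and 54.3 and inguinal fat at 24.2, 28.2 and 26.8. With each sample centred on its median the AKO tissues did not overlap there, and the relative difference was 0.38 in AKO and 1.38 in flox. Toward a larger ratio they were Mdm4, Coro2a, Spata13, BC100451 and B3gntl1, with terms from 1.38 to 2.30. At the intronic Coro2a peak, in a coronin gene, the AKO levels overlapped, with 15.3, 26.3 and 13.4 against 15.1, 14.7 and 12.6. In flox, inguinal fat was higher at Coro2a, with 36.7, 29.1 and 39.5 against 6.18, 8.09 and 9.93. Once centred, the AKO tissues did not overlap at Coro2a either, with a relative difference of 0.69 in AKO and -1.58 in flox. The adjusted p of all 10 was 0.105 by limma and between 0.011 and 0.0993 by edgeR.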

How the data were processed

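ATAC-seq of brown and inguinal fat was analysed in 12 samples. Per the labels and the study's methods, reads were aligned to mm10 with BWA 0.7.17-r1188, duplicates were marked with Picard 2.8.14, autosomal reads were kept, broad peaks were called with MACS2 2.1.1.20160309 in each tissue, and reads per peak were counted with bedtools 2.27.1. The labels and the study's methods differ on the nuclei per reaction and on the sequencer of the inguinal samples, whose longer reads were trimmed to the brown fat length per the methods.

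The deposited signal values were read counts that the authors divided by 1 size factor per sample with DESeq2 1.20.0, each tissue on its own. Whole reads were recovered from the steps of these values, and 100% came out whole within 0.001. Deposited log2 fold changes and p-values of the authors' own comparisons were not used. No other column of sample values was left out (0 columns).

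Peaks were paired with Python 3.11.15, and levels were compared as log2(level + 1), where a fold understates the change of low peaks. The tissue by genotype term was fitted in limma 3.58.1 (R 4.3.3) over 31487 paired peaks and 12 samples and p-values were adjusted by Benjamini-Hochberg, with calls under 0.1. edgeR 4.0.16 (quasi-likelihood) and DESeq2 1.42.0 were alternatives on recovered reads. On simulated data for this term, with 31487 peaks, limma recovered 24 of 100 changes of 1 on the log2 scale and 94 of 100 changes of 2. The changed peaks were drawn from those with a mean of at least 100 reads, so recovery at lower peaks was not measured. Of the same 100 changes of 1 and 100 changes of 2, edgeR recovered 55 and 100, and DESeq2 59 and 99. Of the unchanged peaks limma called 7, edgeR 14 and DESeq2 28. Exact permutation tests were used over mice. Genes are those the brown fat table assigns to a peak.

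Named were, in each direction, up to 8 peaks past 4-fold with a mean of at least 50 reads and the widest gap between samples, the 5 smallest p-values of the tissue by genotype term, and listed genes at their peak of highest mean level over all samples. Other single peaks were chosen after their values were seen, as was the relative 2-fold rule. The comparison and the gene lists were chosen with earlier results of these data known. The inguinal replicates are technical. Replicate numbers are shared between groups but come from no stated pairing. One sequence window and the values of its peak are not reported here.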

Additional observations from a re-analysis of the deposited data

Results flagged for a closer look

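At 4 of the peaks named for the tissue by genotype term, the tissues differed in opposite directions in AKO and flox with no overlap of the samples in either genotype. The term was -1.08 at Plxna1 and -1.52 at Fbf1, where AKO inguinal fat was the higher and flox brown fat the higher. It was 1.54 at Mdm4 and 1.47 at Spata13, where AKO brown fat was the higher and flox inguinal fat the higher. The adjusted p by limma was 0.105 at each of them. The inguinal peak at Fbf1 was 73 bp wide and held 13, 18 and 16 reads in the AKO aliquots.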

How the results depend on the processing

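The 4-fold counts were small and moved with most settings. In the order AKO brown higher, AKO inguinal higher, flox brown higher and flox inguinal higher, they were 3, 22, 12 and 185 as reported. They were 18, 6, 80 and 25 with DESeq2 size factors, 18, 6, 82 and 25 with TMM, 19, 12, 64 and 17 with quantile normalization, 6, 14, 22 and 106 by promoter totals, and 19, 6, 71 and 29 after centring. A pseudocount of 0.1 gave 5, 33, 15 and 261, and one of 5 gave 0, 10, 3 and 44. An overlap of 50% gave 1, 1, 4 and 68, widths of at least 200 bp 2, 14, 11 and 154, widths within 1.5-fold 2, 3, 1 and 60, and at least 10 reads 2, 15, 8 and 170. The 2-fold rule gave 204, 3022, 519 and 5434, the 8-fold rule 0, 4, 0 and 7, ranks 2915, 2790, 3852 and 3352, and centring with 2-fold 957, 660, 1760 and 1602. Leaving out 1 sample gave 2 to 8, 20 to 71, 11 to 22 and 99 to 384, with 71 without brown fat of AKO replicate 2 and 384 without brown fat of flox replicate 3.

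The relative 2-fold counts of 957, 660, 1760 and 1602 became 519, 254, 1064 and 937 with 50% overlap, 361, 188, 757 and 718 with widths within 1.5-fold and the samples centred anew, and 592, 355, 1308 and 888 with a pseudocount of 5. Quantile normalization gave 1029 for flox inguinal higher. Of the thermogenic peaks 8 in AKO and 12 in flox remained with 50% overlap and 5 and 6 with like widths. Leaving out 1 sample gave 895 to 1154, 625 to 911, 1630 to 1967 and 1239 to 2311, and 12 to 14 and 22 to 25 thermogenic peaks.

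For the tissue by genotype term, peaks called lower and higher in AKO were 0 and 0 with limma, 107 and 57 with edgeR, 309 and 214 with DESeq2, 11 and 7 with DESeq2 size factors, 10 and 7 with TMM, 11 and 4 with quantile normalization, 5 and 6 after centring, and 3 and 2 with like widths. Leaving out 1 sample gave 0 to 15 and 0 to 47, the most without brown fat of flox replicate 3. With the first principal component of brown fat as a covariate 0 and 0 peaks passed (smallest adjusted p 0.225 by limma). With the replicate block 0 and 0 peaks passed (smallest adjusted p 0.201 by limma). Deviations of same-numbered AKO and flox samples correlated at 0.53, 0.066 and -0.30 in brown fat and -0.05 to -0.03 in inguinal fat. These values are mixed in brown fat and do not settle whether same-numbered samples were handled together. The causes of these changes were not tested. The settings on widths, centring and the relative rule were chosen after seeing the data. The 3769057 reads of the shallowest AKO aliquot limit what low peaks can show.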

Other observations

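Around the start of Ucp1 a brown fat peak with no inguinal partner (chr8:83289980-83290774, mm10) had levels of 42.9, 42.1 and 33.1 in the AKO mice and 166, 146 and 98.9 in the flox mice. A second one upstream (chr8:83287672-83288095) had 101, 68.7 and 66.5 in AKO and 157, 140 and 117 in flox. The genotypes did not overlap at either, and both were chosen after their values were seen.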
